A study of Mus musculus with 8 samples.

Results

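Internal exons are the exons of a gene that lie between its first and its last, joined on both sides to introns by splice sites. The set described here holds the exons of protein-coding mouse genes on chromosomes 1 to 19 (build mm10) that are neither the first nor the last exon of any transcript and whose centre lies more than 10 kb from every transcription start site (TSS) of a protein-coding transcript. Each exon was set against the 1 kb of intron on both sides, without bases that any annotated exon covers. Of 92953 distinct exons that met the rule, the longest was kept where exons overlapped, which left 88127 exons of 9547 genes out of 268136 exons of all positions.

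SOX9 binding in the mouse spinal cord was measured by CUT&Tag, in which an antibody directs the transposase Tn5 to chromatin so that adapters are inserted near the bound protein. The 8 libraries came from wild-type (WT) C57BL/6 mice that entered the study as young adults, in 4 groups with 1 male (M) and 1 female (F) tissue sample each. Cords were uninjured or taken 1 day after a mid-thoracic contusion (1 dpi), and each nuclei sample gave a library with SOX9 antibody and a control that received the secondary antibody alone. Nuclei of the tissue around the lesion, or of the same level in uninjured mice, were sorted, per the labels on a DNA dye, while the methods refer to a sort that also used antibodies to NEUN or SOX10, so that the cells kept are not certain. A change in cell numbers cannot be told apart from a change per cell. Because the controls are portions of the same nuclei, they share animals with the SOX9 libraries. With 1 sample of each sex in a group, sex and sample cannot be told apart.

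Splice sites mark the borders of an internal exon: the acceptor at its 5′ end usually follows the intron bases AG, and the donor at its 3′ end usually precedes GT. Exons of mammals tend to be richer in G and C than the introns around them and to be occupied by nucleosomes. SOX9 is a transcription factor of the HMG-box family that binds a short AT-rich core, is expressed by astrocytes in the adult cord and is best known for directing cartilage formation. Tn5 prefers certain bases at its insertion site and makes staggered cuts, and open or GC-rich chromatin often gives more fragments even without a bound antibody.

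The SOX9 libraries held 1824332 (M) and 7068156 (F) fragments on these chromosomes in the uninjured cords and 2463775 (M) and 2317198 (F) at 1 dpi. The controls held 22300, 45472, 51460 and 10664 fragments in the same order, far fewer than any SOX9 library. Among control fragments that no other fragment of their library touched, 82.7% to 93.7% had the start and end of a stretch in a SOX9 library, against 1.65% to 4.01% of such fragments of 1 SOX9 library found in another. The controls were therefore not an independent background, and comparisons with them are given with that limit.

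The exons were short, with a median length of 125 bases and 85.9% under 200 bases. Of all members 93.9% were wholly coding and 75.5% were present in every transcript that spans them. Bases of the exons were 49.7% G or C, whereas 100-base windows of their flanks had a mean of 43.2%. Repeats took 4.98% of exon bases and 22.9% of flank bases. Although every centre was more than 10 kb from a coding TSS, 44624 members lay within 10 kb of the start of some annotated transcript, noncoding ones included.

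At least 1 fragment overlapped 31.0% (95% Wilson interval 30.7 to 31.3) of the members in the uninjured male SOX9 library and 61.3% (61.0 to 61.6) in the female one. At 1 dpi the shares were 37.3% (37.0 to 37.6) in M and 36.9% (36.6 to 37.2) in F, so the order followed the depth of the libraries. In the controls the share was between 0.308% and 1.20%. Intervals cover counting error only. Across the 4 SOX9 libraries 18290 members (20.8%) were at 0 in each, and 5445 (6.18%) were at or above the library mean in each. Values for single exons therefore rest on few fragments.

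Levels are given as coverage per base over the library's mean coverage of chromosomes 1 to 19. Summed over all members, the exon level was 1.51 (M) and 1.68 (F) in the uninjured cords and 1.55 (M) and 1.51 (F) at 1 dpi. The level of the flanking intron was 1.3 (M) and 1.38 (F) in the uninjured cords and 1.3 (M) and 1.28 (F) at 1 dpi. Exons and flanks both lay above the library mean in all 4 SOX9 libraries, and the exons lay above their flanks.

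The ratio of exon to flank was 1.16 (M) and 1.22 (F) in the uninjured cords and 1.20 (M) and 1.18 (F) at 1 dpi, with a mean of 1.19 ± 0.0241 (SD, n = 4). In log2 the mean was 0.25, above 0 in 4 of 4 libraries, with p = 0.12 by an exact two-sided sign-flip permutation test, the smallest value that 4 libraries can give, and 0.219 after Benjamini-Hochberg adjustment over the 7 tests of this kind. The ratio did not hold against flank windows pooled over all members and weighted to the GC content of the exons. It was then 0.917, 0.918, 0.921 and 0.922 in the same order, below 1 in each library. The log2 mean was -0.12 (exact sign-flip permutation p = 0.12). Such windows are not an exon's own introns, so base composition cannot be told apart from the level of the surrounding region here. With equal weight for each exon the log2 mean was 0.09, lower than with the summed coverage.

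Across classes from under 40% to 60% GC or more, exon level rose in every SOX9 library. From 65% to 70% on to 70% to 75% (132 exons) it fell in the male libraries and rose in the female ones. In the males it went from 3.33 to 2.31 in the uninjured cord and from 3.61 to 2.95 at 1 dpi. Members under 40% GC were at 0.543 (M) and 0.447 (F) in the uninjured cords and 0.473 (M) and 0.524 (F) at 1 dpi, and members of 60% GC or more were at 2.95 (M) and 3.81 (F) in the uninjured cords and 3.26 (M) and 2.99 (F) at 1 dpi. The ratio to the flank went from 0.678 ± 0.0359 below 40% through 1.01 ± 0.0148 from 40% and 1.25 ± 0.0285 from 50% to 1.36 ± 0.0544 from 60% (SD, n = 4). Low-GC exons thus lay below their flanks and GC-rich exons above them. Against flank windows of the same GC content, pooled over all members, exons from 40% to 45% GC had ratios of 0.715 to 0.758. Those from 50% to 55% had 0.934 to 0.937, and those from 60% to 65% had 1.05 to 1.09. With GC taken over 300 bases instead, an alternative chosen after seeing the data, the ratios from 60% to 65% were 0.792 to 0.818, below 1 where the first match gave values above 1. From 65% to 70% they were 0.889 to 1.14 against 1.07 to 1.16 before, and the few exons from 70% to 75% (30) were at 1.1 to 1.68 against 0.904 to 1.28. At the other end, from 25% to 30%, they were 1.29 to 1.54 against 0.488 to 0.813, so that the place of several of these classes turned with the width over which GC was matched. From 40% to 45% and from 50% to 55% they were 0.862 to 0.896 and 0.806 to 0.829, below 1 either way.

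Length separated the members as well. Exons under 75 bases had a ratio of 1.00 (M) and 0.999 (F) in the uninjured cords and 1.01 (M) and 1.00 (F) at 1 dpi, level with their flanks. From 75 bases the mean was 1.09 ± 0.0159, from 150 bases 1.16 ± 0.0303 and from 300 bases 1.34 ± 0.0252 (SD, n = 4). Longer exons were also richer in GC, with a median of 47.1% below 75 bases and 51.4% from 300 bases. Fragments had a mean length of 223 to 264 bases in the SOX9 libraries, longer than most of the exons. The part of GC content and fragment length in these differences was not tested.

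With distance from the nearest coding TSS the exon level fell, from 1.75 ± 0.107 at 10 to 30 kb to 1.36 ± 0.0571 at 30 to 100 kb and 1.07 ± 0.0229 beyond 100 kb (SD, n = 4). The flanks fell too, to 0.830 ± 0.0184 beyond 100 kb, and the ratio there was 1.27 (M) and 1.33 (F) in the uninjured cords and 1.28 (M) and 1.29 (F) at 1 dpi, higher in each library than at 10 to 30 kb (1.17 ± 0.0199). At 30 to 100 kb it was 1.17 ± 0.0347, below that at 10 to 30 kb in 3 of 4 libraries, so the ratio did not rise steadily with distance. At the distance limit itself, the 4351 members between 10 and 11 kb had an exon level of 2.0 ± 0.156 and a ratio of 1.19 ± 0.0213. The 4642 internal exons between 9 and 10 kb, outside the set, had 2.06 ± 0.150 and 1.19 ± 0.00972.

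Wholly coding members had a ratio of 1.16 ± 0.0231 and the others 1.3 ± 0.0406 (SD, n = 4). Members in every spanning transcript had 1.17 ± 0.0272 and members in only some of them 1.19 ± 0.0180. Both come from the same libraries, so these SDs do not measure the spread of their difference. The 18454 members that overlap a first or last exon of some transcript in part had 1.22 ± 0.0234, and the remainder 1.15 ± 0.0198. These classes were described and not tested.

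The SOX core was searched as A or T at each of the first 2 bases, then CAA, then A or T, then G, on both strands and was found in 16966 members (19.3%). These had an exon level of 1.46 ± 0.0481, below the 1.61 ± 0.0970 of members without a match, and flanks of 1.12 ± 0.0218 against 1.36 ± 0.0498. Their ratio was 1.27 (M) and 1.32 (F) in the uninjured cords and 1.31 (M) and 1.29 (F) at 1 dpi, above that of members without a match in each library (1.18 ± 0.0296). In the controls the ratio was 1.35 ± 0.0422 with and 1.36 ± 0.0442 without a match. Single controls went both ways, at 1.29 with and 1.40 without in the uninjured male, and 1.37 with and 1.31 without in the uninjured female. Whether SOX9 libraries and controls differ in this was not tested. Members with a core were longer, with a median of 148 against 120.0 bases, and lower in GC, with a median of 47.0% against 50.0%. The AP-1 motif (TGACTCA or TGAGTCA, both strands) was in 1659 members (1.88%), whose ratio was 1.35 ± 0.0361 against 1.18 ± 0.0240 in the others. In the controls it was 1.36 ± 0.347 with and 1.32 without the motif, with single libraries from 0.905 to 1.73. Members with this motif were longer too, with a median of 170.0 bases, and the part of length and GC content in these differences was not tested.

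Across the splice sites the signal formed a shallow rise. In 50-base bins the mean over the SOX9 libraries was 1.29 ± 0.0389 at 950 to 1000 bases before the acceptor, 1.35 ± 0.0478 at 50 to 100 bases before it and 1.48 ± 0.0783 over the first 50 bases of exons of at least 100 bases (SD, n = 4). Past the donor it was 1.39 ± 0.0574 at 50 to 100 bases and 1.29 ± 0.0441 at 950 to 1000 bases. Within the introns the level was thus higher near the splice sites than 950 to 1000 bases away. The intron bins held members of all lengths and the exon bins only the longer ones, so the step between them mixes different sets. Fragments were on average longer than a bin, so where the rise begins and ends cannot be placed.

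Fragment ends were counted base by base at the splice sites. At the acceptor, ends of fragments that extend into the exon were 3.48 times as frequent 1 base before the exon as at bases more than 15 and up to 50 away from the site, and 2.03 times at 6 bases before it. By library the first value was 3.32 and 3.51 in the uninjured cords and 3.63 and 3.34 at 1 dpi, M before F. Ends of fragments that extend into the intron were most frequent 8 bases inside the exon (2.97 times), 9 bases from the first peak. At the donor the peaks lay 8 bases past the exon (3.60 times) and 1 base inside it (4.15 times), again 9 bases apart. In the controls together the acceptor peak was 3.87 times, from 28 ends. Because most lone control fragments were shared with a SOX9 library, this value cannot show whether the peak arises without the SOX9 antibody. How many of these 28 ends were shared was not measured.

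Internal exons within 10 kb of a coding TSS (76815) stood at a higher level than the members, 2.95 (M) and 3.59 (F) in the uninjured cords and 3.13 (M) and 2.96 (F) at 1 dpi, and their ratio to their flanks was 1.33 ± 0.00534. The log2 ratio of the members was lower in 4 of 4 SOX9 libraries, by a mean difference of -0.17 (exact two-sided sign-flip permutation p = 0.12, the smallest possible, adjusted 0.219). Last exons (49787), set against the intron before them, had an exon level of 1.76 ± 0.140 and a ratio of 0.883 ± 0.0112, below 1 in each library. The members' log2 ratio was higher than theirs by 0.43 in the mean, in 4 of 4 libraries (exact two-sided sign-flip permutation p = 0.12, adjusted 0.219). Median GC was 49.5% in the members, 52.3% in the near internal exons and 47.4% in the last exons, in the order of the ratios. Median length was 125, 127 and 430 bases, not in that order. The part of GC content and length in these differences was not tested.

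In the controls, which received no SOX9 antibody, the exon level was 1.77 (M) and 1.66 (F) in the uninjured cords and 1.65 (M) and 1.94 (F) at 1 dpi, and the ratio to the flank was 1.33 (M) and 1.29 (F) in the uninjured cords and 1.32 (M) and 1.37 (F) at 1 dpi, higher than in any SOX9 library. The mean log2 ratio differed by -0.16 (SOX9 minus control; exact two-sided permutation p = 0.0286, the smallest possible with 4 against 4, adjusted 0.2). Paired by nuclei sample, the exact sign-flip permutation test gave p = 0.12, the smallest possible with 4 pairs. In none of the SOX9 libraries was the ratio above that of a control. The shallowest control, that of the female at 1 dpi, had the highest ratio and only 273 overlaps of a fragment with a member, and most control fragments were shared with a SOX9 library, as given above.

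Injury was compared next. In the SOX9 libraries the mean ratio was 1.19 in uninjured cords and 1.19 at 1 dpi, a log2 difference (1 dpi minus uninjured) of -0.0032 with p = 1 by an exact two-sided permutation test, for which 2 against 2 cannot go below 0.33. The values of the groups overlapped, and M and F moved in opposite directions. The exon level differed by -0.06 in log2 (exact permutation p = 1), or by -0.14 with levels taken over the median of 10-kb bins, and the ratio in the controls by 0.04 (exact permutation p = 0.667), with adjusted values of 1, 1 and 0.933. With 2 libraries a condition, a difference of this size was not detectable.

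Single exons were tested with limma on log2(level + 0.5), over the 157628 exons of all positions with a mean of at least 1 times the library mean in the SOX9 libraries, of which 41495 were members. At an adjusted p under 0.05 limma called 0% of all exons and 0 members. At an unadjusted p under 0.05, 869 members (2.09%) were higher at 1 dpi, against 1.48% of all exons tested, and 1189 (2.87%) were lower, against 2.61%. Shares this near those of all exons are no result about the members. The balance moved with the libraries used, in the members and in all exons. Without the 1 dpi male library 1819 members (4.38%, all exons 2.67%) were higher and 582 (1.40%, all exons 2.1%) lower, and without the 1 dpi female library 1765 members (4.25%, all exons 2.65%) were higher and 451 (1.09%, all exons 1.60%) lower. Without the uninjured male library 240 members (0.578%, all exons 0.597%) were higher and 4623 (11.1%, all exons 8.17%) lower, and without the uninjured female library 3588 members (8.65%, all exons 8.86%) were higher and 5801 (14.0%, all exons 9.13%) lower. Summed over the members of a gene, 6791 genes with at least 500 member bases were tested, and limma called 0% of them at an adjusted p under 0.05. At an unadjusted p under 0.05, 128 genes (1.88%) were higher and 184 (2.71%) lower. For genes too the balance moved with the libraries used. Their median log2 difference was -0.03 with all SOX9 libraries, -0.09 without the uninjured male library and 0.02 without the uninjured female library. Large changes placed in simulated libraries of this depth were not called either, so a count of 0 does not show that exons or genes kept their level. With the controls added to the fit, limma called 2895 members (6.98%, against 4.94% of all exons tested) and 43 genes (0.633%). Without the uninjured male SOX9 library it called 3736 members (9.0%, against 5.67% of all exons), of which 3735 were lower at 1 dpi. The controls were at 0 at nearly all members, and the lone uninjured library was assumed to vary like the others.

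The mean level of a member over the SOX9 libraries had a median of 0.941, and 1 in 100 members exceeded 8.13. Members at or above 5 in each SOX9 library numbered 553 (0.628%). Their median GC was 57.5% against 49.5% in all members, and their median distance from the start of any annotated transcript was 3154 against 9756 bases. High exons thus tended to lie nearer to annotated starts, noncoding ones included.

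The 10 members, 1 per gene, whose lowest value among the SOX9 libraries was greatest are described without a test. First was exon 3 of Tmed10, a cargo receptor of the early secretory pathway (chr12:85350803-85350876, minus strand, 74 bases, coding), at 41.1 (M) and 58.3 (F) in the uninjured cords and 80.0 (M) and 79.7 (F) at 1 dpi. Both 1 dpi values were above both uninjured ones, from 11 to 48 fragments a library. Its flank had a mean of 14.3, and a transcript of the same gene with a retained intron starts 80 bases from its centre. Exon 2 of Btd, which encodes biotinidase (chr14:31662070-31662325, plus strand, 256 bases, coding), was at 37.2 (M) and 83.3 (F) in the uninjured cords and 95.9 (M) and 47.1 (F) at 1 dpi. It held 16 CpG dinucleotides, and the groups overlapped. Exon 21 of Tmem63a, a mechanosensitive ion channel (chr1:180972716-180972831, plus strand, 116 bases, coding), was at 47.7 (M) and 73.0 (F) in the uninjured cords and 34.7 (M) and 30.2 (F) at 1 dpi. Both uninjured values were above both at 1 dpi, from 10 (M) and 57 (F) fragments uninjured and 12 (M) and 9 (F) at 1 dpi.

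Of the other exons, Slc20a2, a phosphate transporter (chr8:22565614-22565698, plus strand), was at 22.1 (M) and 36.1 (F) in the uninjured cords and 57.9 (M) and 23.1 (F) at 1 dpi, and Ppp1r16b, a regulatory subunit of protein phosphatase 1 (chr2:158749167-158749270, plus strand), at 20.3 (M) and 19.5 (F) in the uninjured cords and 57.5 (M) and 39.1 (F) at 1 dpi. Tecpr2, a protein of autophagy (chr12:110936276-110936459, plus strand), had the least spread among the SOX9 libraries, at 20.5 (M) and 25.7 (F) in the uninjured cords and 20.9 (M) and 19 (F) at 1 dpi, and its exon lay 21317 bases from any annotated start. Ptprn, a protein of dense-core vesicles (chr1:75248102-75248166), and Pdzd7, a PDZ scaffold (chr19:45028379-45028479), both on the minus strand, had means of 35.3 and 36.8. The flanks of Pdzd7 were at 34.2, so its exon did not stand out from its introns. The exons of Fam102a (chr2:32558318-32560155) and C87436 (chr6:86472125-86472319) were not wholly coding, with means of 36.6 and 34.0, and the latter overlapped an exon of A430078I02Rik. No control had more than 3 fragments at any of these 10 exons, yet at such depth 1 fragment on Slc20a2 gave 257 in the uninjured female control, so the levels of single exons in the controls cannot be read.

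The sequences of 4 of these coding exons are shown, Tmed10, Btd and Tmem63a because they stood first in that order and Tecpr2 because it held a SOX core. Each is from mm10 on the strand of the gene, 5′ to 3′, with 10 intron bases on either side, and capitals mark the 2 intron bases at the acceptor and at the donor. The splice bases are marked because fragment ends were counted from them. The donor of Btd reads GC and the others GT. The core in Tecpr2, TACAAAG, begins at base 88 of the exon, and the other sequences held none.
Tmed10: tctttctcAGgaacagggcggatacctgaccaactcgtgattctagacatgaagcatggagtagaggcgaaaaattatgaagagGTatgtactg
Btd: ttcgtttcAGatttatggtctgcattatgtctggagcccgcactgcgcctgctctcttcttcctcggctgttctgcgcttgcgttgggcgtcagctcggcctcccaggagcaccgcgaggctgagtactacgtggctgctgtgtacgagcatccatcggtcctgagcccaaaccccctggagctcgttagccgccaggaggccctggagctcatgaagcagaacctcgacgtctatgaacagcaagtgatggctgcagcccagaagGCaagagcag
Tmem63a: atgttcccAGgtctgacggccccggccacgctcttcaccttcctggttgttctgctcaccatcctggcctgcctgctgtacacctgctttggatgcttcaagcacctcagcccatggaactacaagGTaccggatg
Tecpr2: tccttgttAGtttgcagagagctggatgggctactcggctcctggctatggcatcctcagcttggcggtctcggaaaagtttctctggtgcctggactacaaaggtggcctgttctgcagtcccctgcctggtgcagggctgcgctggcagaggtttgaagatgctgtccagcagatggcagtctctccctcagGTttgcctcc

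Among the 742 genes with at least 20 members and 3000 member bases, the median ratio of summed exons to flanks was 1.13 (quartiles 0.972 and 1.3). It was above 1 in each SOX9 library for 154 genes (20.8%) and below 1 in each for 32 (4.31%). The highest were Rims1 and Pclo, scaffolds of the presynaptic active zone, Jmjd1c, a histone demethylase family member, Thsd7a and Mug1. Rims1 had ratios of 1.21 (M) and 3.75 (F) in the uninjured cords and 4.06 (M) and 3.84 (F) at 1 dpi, with the uninjured male library far below the others. Jmjd1c had 2.32 (M) and 2.80 (F) in the uninjured cords and 2.1 (M) and 2.40 (F) at 1 dpi, with all libraries above 2 and 206 fragment overlaps, whereas Mug1, a plasma protease inhibitor, rested on 13. The lowest were Sis, an intestinal disaccharidase, Sycp2, a protein of meiotic chromosomes, Phip, Aox1 and Ccdc18. Phip had 0.380 (M) and 0.422 (F) in the uninjured cords and 0.738 (M) and 0.595 (F) at 1 dpi, below 1 in each library, while Sis rested on 3 and Ccdc18 on 5 fragment overlaps, and Ccdc18 was at 1.56 in the uninjured male library.

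The members were also read by lists of genes that mark cell types or share a role. Values of genes are means over the SOX9 libraries, and genes with the highest or the lowest exon level of their list among those with at least 10 members are given, a choice made after their values were seen. The 128 members in astrocyte genes had an exon level of 1.35 (M) and 1.21 (F) in the uninjured cords and 1.23 (M) and 1.32 (F) at 1 dpi, and a ratio of 0.932 ± 0.0482 (SD, n = 4), below that of all members in each library. Among genes with at least 10 members the lowest was Ptprz1, a receptor phosphatase, at 0.472 with flanks at 0.483. Genes of reactive astrocytes (139 members) were at 1.19 (M) and 0.839 (F) in the uninjured cords and 1.02 (M) and 1.09 (F) at 1 dpi. They ran from Cd44, the hyaluronan receptor, at 0.569 with flanks at 0.564, to Stat3, a transcription factor of cytokine signalling, at 2.83 with flanks at 2.18. Fgfr3, Aqp4, Vim, Gfap and Synm of these lists had no member exon.

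Cartilage genes known as SOX9 targets (228 members) were at 1.41 (M) and 1.58 (F) in the uninjured cords and 1.65 (M) and 1.60 (F) at 1 dpi, with a ratio of 1.02 ± 0.0258 (SD, n = 4), so that as a list their exons lay near their flanks. They ran from Col11a1, a minor fibrillar collagen chain, at 0.190 with flanks at 0.255, to Col9a2, a collagen chain on the surface of cartilage fibrils, at 3.16 with flanks at 2.77. Comp and Matn1 had no member exon.

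Genes of neuronal synapses (330 members) were at 1.72 (M) and 2.85 (F) in the uninjured cords and 2.22 (M) and 2.05 (F) at 1 dpi, with the uninjured male and female libraries farthest apart. They ran from Dlg1, a synaptic scaffold, at 0.834 with flanks at 1.03, to Nrxn2, a presynaptic adhesion protein, at 6.79 with flanks at 5.41. Oligodendrocyte genes (86 members) were at 2.47 (M) and 2.53 (F) in the uninjured cords and 2.67 (M) and 2.29 (F) at 1 dpi. The members of Mbp, which encodes a major myelin protein, were at 7.84 with flanks at 6.33, the highest of the list although they numbered only 7, and those of Tcf7l2, a transcription factor of oligodendrocyte maturation, were at 0.599 with flanks at 0.688, the lowest. Mog and Sox10 had no member exon. Microglial genes (135 members) were at 1.41 (M) and 1.11 (F) in the uninjured cords and 1.26 (M) and 1.57 (F) at 1 dpi, from Ptprc, a phosphatase of leukocytes, at 0.411 with flanks at 0.238, to Csf1r, the receptor on which microglia depend, at 3.37 with flanks at 2.55. P2ry12 had no member exon. Genes of very many exons (1219 members) were near the library mean, at 0.982 (M) and 0.924 (F) in the uninjured cords and 0.864 (M) and 0.956 (F) at 1 dpi, from Ttn, which encodes titin, at 0.395 with flanks at 0.228, to Dst, a linker of the cytoskeleton, at 2.73 with flanks at 2.04. Beside the astrocyte and cartilage lists given above, the ratio was 1.14 ± 0.0922 for reactive astrocyte and 1.16 ± 0.0590 for many-exon genes. It was 1.22 ± 0.108 for oligodendrocyte, 1.35 ± 0.221 for synaptic and 1.44 ± 0.164 for microglial genes (SD over the SOX9 libraries).

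Between conditions the median log2 change (1 dpi minus uninjured, on the scale of level + 0.5) was 0.34 over 10 astrocyte genes, 0.13 over 8 reactive astrocyte genes, 0.09 over 8 cartilage genes, -0.10 over 19 synaptic genes, and -0.03 over all 6791 genes tested. It was 0.08 over 8 oligodendrocyte genes, 0.11 over 8 microglial genes and -0.05 over 14 many-exon genes. The astrocyte genes went both ways, from -1.05 to 0.91 with 6 of 10 above 0, and the summed level of their members was 1.28 in uninjured cords and 1.27 at 1 dpi, so that the median and the summed level of this list differ in sign. Under the scaling by a trimmed mean the same medians were 0.30 (astrocyte), 0.10 (reactive astrocyte), 0.05 (cartilage), -0.13 (synaptic), 0.04 (oligodendrocyte), 0.08 (microglial), -0.08 (many-exon) and -0.06 over all genes. limma called 0 genes of the lists at an adjusted p under 0.05, and at an unadjusted p under 0.05 it found 1 of 75 list genes (1.33%), Mobp, against 4.59% of all genes tested. Mobp, a myelin protein, had member exons at 8.54 (M) and 12.3 (F) in the uninjured cords and 4.16 (M) and 5.50 (F) at 1 dpi. For the exons the groups did not overlap (limma log2 difference -1.02, adjusted p = 0.951). For their flanks they did, at 4.40 (M) and 9.66 (F) in the uninjured cords and 8.24 (M) and 5.01 (F) at 1 dpi. Mobp rests on 3 members of 514 bases in all, just over the minimum of 500, and was chosen after its values were seen. A share below that of all genes is no result about the lists.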

How the data were processed

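Per the labels and methods, the authors mapped paired reads to mm10 with Bowtie2 2.5.4, removed duplicates with Picard 3.4.0 and deposited the coverage of each library as a signal in whole numbers, not scaled for depth. In 20283253 stretches, 0 overlapped another of their library. Depth was 10664 to 7068156 fragments, counted as rises of the coverage. Exons came from GENCODE and bases from GRCm38, the assembly of mm10. Coverage was summed over exons and flanks with Python 3.11.15 and numpy 2.4.6, and divided by the library mean. Exact permutation tests were two-sided. Single exons and genes were fitted with limma 3.58.1 in R 4.3.3 (mean-variance trend, pseudocount 0.5, Benjamini-Hochberg adjustment), which was tested on simulated data. Each SOX9 library and its control came from the same nuclei, which pairs them. Named were the 10 exons, 1 a gene, whose lowest SOX9 value was greatest, the 5 genes at each end of the ratio, members or genes past an adjusted p of 0.05 (0), and list genes with at least 10 members. Mbp and Mobp fall outside this rule and were picked with their values in view. Members and lists were chosen with earlier results of these data known. Alternatives covered flank width, distance, repeats, GC content, weights, scaling, filters, pseudocounts and left-out libraries. Peaks were not used here.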

Additional observations from a re-analysis of the deposited data

Results flagged for a closer look

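In the SOX9 libraries the exon to flank ratio of the members changed in opposite directions at 1 dpi in the sexes, by 0.0416 in log2 in M and -0.0479 in F. The exon level did likewise, by 0.0410 in M and -0.154 in F. In the controls the ratio changed by -0.00494 in M and 0.0828 in F, and the level by -0.0964 in M and 0.223 in F, with the signs the other way round. These differences between the sexes were not tested, since each rests on 1 library of each kind. Sex and sample cannot be told apart. The uninjured female SOX9 library was also the deepest, and the part of depth was not tested.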

How the results depend on the processing

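The log2 ratio of exons to flanks was above 0 under 10 alternatives (0.09 to 0.26). It was below 0 under both GC alternatives, which pooled flank windows over all members. These gave -0.12 with windows weighted by GC and -0.25 with GC over 300 bases. The second of these, fragment ends in place of coverage and members free of first and last exons were chosen after seeing the data. The cause was not tested. The difference between SOX9 libraries and controls kept its direction, from -0.24 (members with 1 kb of intron on both sides) to -0.12 (GC over 300 bases), and was -0.16 with the replicate block of nuclei samples, where 4 pairs cannot pass the threshold. The change of the ratio at 1 dpi, near 0, turned positive: 0.0057 with full flanks only, 0.0012 over bases outside repeats, 0.0065 with GC-weighted flanks, 0.0134 with GC taken over 300 bases, 0.0176 from fragment ends. With sex as a replicate block it was -0.0032.

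Leaving out 1 library at a time gave 0.237 to 0.260 for exons against flanks, -0.171 to -0.143 for SOX9 against control, -0.0373 to 0.0309 for the ratio at 1 dpi, -0.135 to 0.0217 for the level at 1 dpi (-0.14 when scaled by the median of 10-kb bins), -0.178 to -0.156 against near internal exons and 0.411 to 0.441 against last exons. The level at 1 dpi changed sign without the uninjured female library, and the ratio at 1 dpi without either female library. For single exons limma called 0 in all, 7782 with the controls in the fit, and 0 to 8936 with 1 library left out, the highest without the uninjured male library, where the lone library is assumed to vary like the others. Genes went from 0 to 43 with the controls in the fit and were 0 under the other alternatives, sex as a replicate block included. The cause was not tested. Depth limits single exons, since the SOX9 libraries covered 31.0% to 61.3% of members and the controls at most 1.20%, and 2 libraries a condition limit the comparisons of conditions.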
